A study of Mus musculus with 12 samples.

Results

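The core autophagy machinery was followed through its transcripts in HT22 cells, an immortalized mouse line derived from hippocampus, after silencing of Ncoa4 and after iron restriction. Its members were the 39 genes on a list that covers the initiation kinase complex, the PI3-kinase complex, membrane supply, the conjugation enzymes, the ATG8 family and the cargo receptors other than Ncoa4. All 39 were found among the 24347 rows of the expression tables, and 39 of 39 passed the filter on low values, which left 11924 genes for testing. The rule for membership uses gene function and no measured value, but the list was chosen with earlier results of these data known. Of 12 libraries of total RNA, 3 biological replicates each came from cells given a control siRNA (siControl), cells given siRNA against Ncoa4 (siNCOA4), and the same pair of transfections followed by deferoxamine (DFO) at 100 µM for 24 h (siControl+DFO and siNCOA4+DFO). DFO is an iron chelator that limits the iron available for import. Every group carried a transfected siRNA, so none represents untransfected cells, and the knockdown rests on a single siRNA sequence. Abundance is given in FPKM, a read measure corrected for transcript length and library size, which allows levels of different genes to be set side by side.

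Macroautophagy encloses cytoplasm in a double membrane, the autophagosome, and delivers it to the lysosome. A kinase complex built on ULK1 starts the process, a PI3-kinase complex marks the forming membrane with the lipid PI3P, ATG9 vesicles and the lipid transfer protein ATG2 supply membrane, and a pair of ubiquitin-like conjugation systems attach ATG8 proteins (the LC3 and GABARAP families) to it. Cargo receptors bind both their cargo and ATG8 proteins, and NCOA4 is the receptor that brings the iron store ferritin to this machinery.

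The siRNA target was low in every library that received its siRNA. Ncoa4 stood at 6.46, 6.19 and 6.02 FPKM in siControl, 0.770, 0.952 and 0.891 in siNCOA4, 8.70, 8.31 and 7.52 in siControl+DFO, and 0.85, 1.28 and 1.57 in siNCOA4+DFO. Of the 8 neuron markers, Rbfox3, Map2, Snap25 and Nefl were at 0 in 10 or 11 of 12 libraries, while Tubb3 lay between 4.56 and 13.6 FPKM. Syp, Slc17a7 and Camk2a were at 0 in 2, 5 and 0 libraries and did not exceed 0.554, 0.126 and 1.415 FPKM. The fibroblast collagens Col1a1 and Col1a2 lay between 73.4 and 439 FPKM and between 268 and 1107 FPKM. Pdgfra, the remaining fibroblast marker, lay between 2.98 and 21.7 FPKM, so the sum given next is mostly collagen. The labelled neuronal type was not borne out by these markers. The summed level of the 3 fibroblast markers ran from 1272 to 1567 FPKM in siControl, 722 to 925 in siNCOA4, 345 to 461 in siControl+DFO and 392 to 474 in siNCOA4+DFO, and the 8 neuron markers summed to 8.10 to 9.32, 6.08 to 7.85, 12.2 to 13.8 and 5.77 to 9.83 FPKM in the same order. Markers of astrocytes, microglia and oligodendrocytes summed to at most 3.11, 0.795 and 1.47 FPKM. The part of these markers in the results was not tested. Relative depth, read from the spacing of low values, spanned 1.52-fold between libraries. The siNCOA4+DFO replicate 3 library had the lowest relative depth (0.928) and the lowest correlations with its own group (Pearson r of 0.926 and 0.934 across genes). Small RNA genes took 50.8% to 54.7% of the summed FPKM in siNCOA4+DFO and 38.7% to 48.9% in the other groups. In bulk RNA, fewer cells of a type and less RNA per cell cannot be told apart.

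In siControl cells the machinery covered more than 2 orders of magnitude in abundance. The receptor Sqstm1, which encodes p62, had the highest mean at 136 ± 5.35 FPKM (SD, n = 3), followed by the ATG8 gene Gabarap at 119 ± 16.3, and the ranges of these genes overlapped. Tax1bp1 at 71.2 ± 3.37 and Becn1 at 48.2 ± 4.50 came next, each apart from its neighbours. Nbr1 at 34.4 ± 2.84 and Map1lc3b at 32.4 ± 1.43 overlapped. At the other end, Atg9b at 0.776 ± 0.151, Atg10 at 1.38 ± 0.809 and Atg4a at 2.46 ± 0.857 had the lowest means.

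Iron restriction of siControl cells raised more of these transcripts than it lowered. With DFO, 20 of 39 members rose and 5 fell at an adjusted p below 0.05 (limma on log2(FPKM + 0.1), Benjamini-Hochberg over all 11924 genes), which is 51.3% rising against 27.7% of all genes and 12.8% falling against 25.7%. The median log2 change was 0.36 over the members and -0.01 over all genes tested. Separation without overlap of the 3 DFO and 3 control libraries was seen upward for 22 members, 56.4% against 31.1% of all genes, and downward for 5, 12.8% against 29.6%. A rise above 2-fold was reached by 4 members, Atg9b, Ulk1, Sqstm1 and Atg14, which is 10.3% against 11.1% of all genes. The plot of DFO effects by role shows that the large changes were few and that most members moved by less than 1 on the log2 scale.

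**Figure D1:**
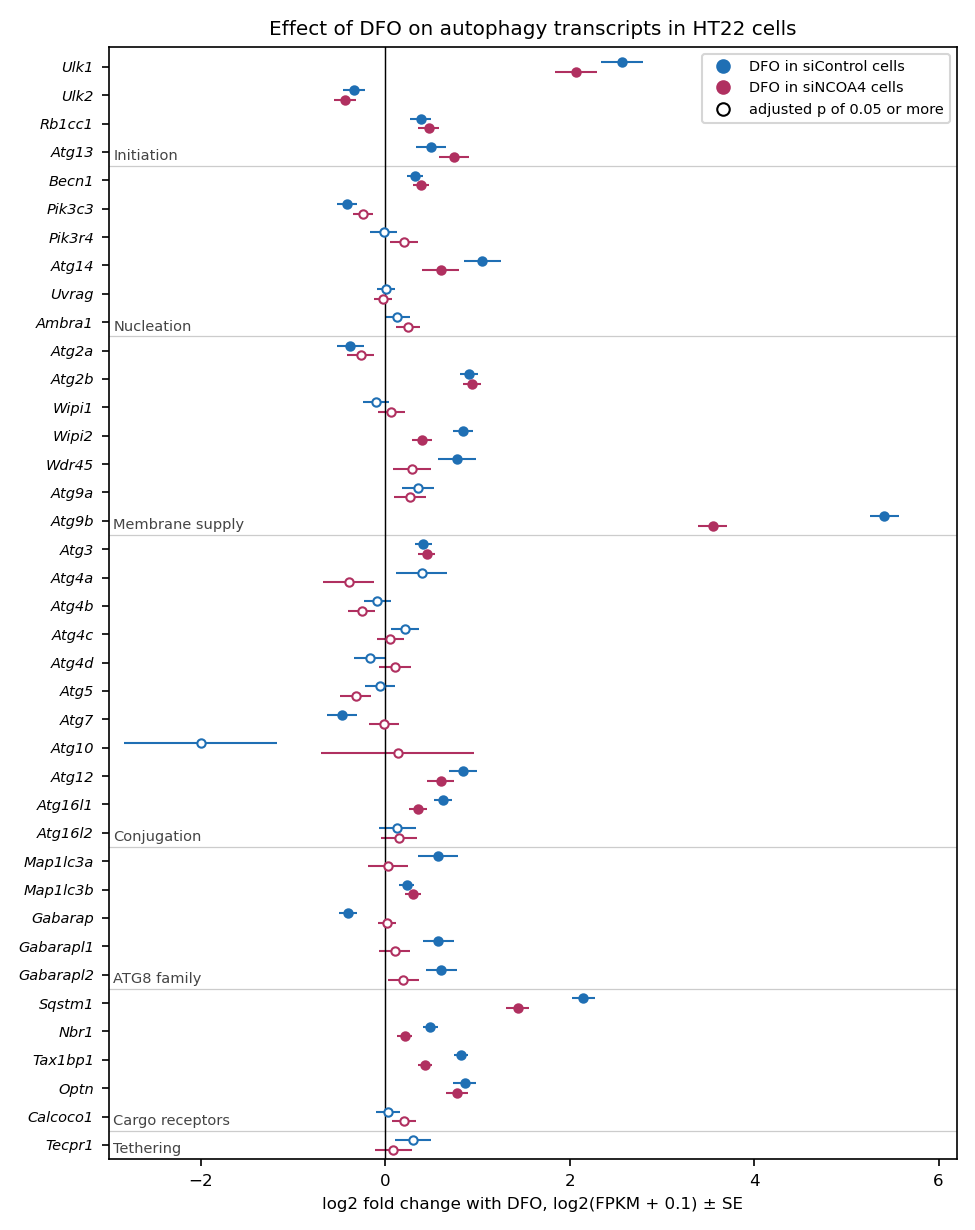
Log2 fold change with DFO of each of the 39 members on the log2(FPKM + 0.1) scale, with standard error, in siControl cells (blue) and in siNCOA4 cells (red), grouped by role. Filled points have an adjusted p below 0.05 in limma and open points do not; Atg9b lies farthest to the right in both, at 5.41 and 3.55, and Atg10 has the widest error.

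Among the initiation genes, 3 of 4 rose with DFO in siControl cells and 1 fell, beside 27.7% and 25.7% of all genes. Ulk1, the kinase that starts autophagosome formation, stood at 4.46, 4.08 and 3.59 FPKM in siControl, 4.31, 3.03 and 3.30 in siNCOA4, 23.8, 27.4 and 22.4 in siControl+DFO, and 19.9, 17.4 and 9.82 in siNCOA4+DFO. All 6 DFO libraries lay above all 6 libraries without it. The rise with DFO was 2.57 ± 0.23 (log2, SE) in siControl cells (adjusted p = 1.77e-06) and 2.07 ± 0.23 in siNCOA4 cells (adjusted p = 1.91e-05). Its close relative Ulk2 went the other way, from a mean of 10.3 to 8.16 FPKM (log2 change -0.34 ± 0.12, adjusted p = 0.0298). The log2 ratio of Ulk1 to Ulk2 was -1.30, -1.42 and -1.36 in siControl and 1.60, 1.79 and 1.35 in siControl+DFO, so the more abundant of the pair switched. That shift of 2.94 had p = 0.1 in the exact permutation test, two-sided, the smallest value that 3 against 3 libraries allow (adjusted p = 0.180 over 18 ratio tests). In siNCOA4+DFO the same ratio was 1.04, 1.07 and -0.04, with replicate 3 below the others. Rb1cc1, which encodes the scaffold FIP200, rose by 0.39 ± 0.11 (adjusted p = 0.0115). Atg13, the adaptor of the complex, stood at 4.58, 4.79 and 5.78 FPKM in siControl and 7.10, 8.25 and 6.16 in siControl+DFO, a rise of 0.49 ± 0.16 (adjusted p = 0.021).

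Some of these calls depended on single libraries. The Ulk2 call in siControl cells was lost without siControl replicate 1 or 2 or without siControl+DFO replicate 1 or 2 (adjusted p of 0.0804 to 0.0938). Without siControl replicate 1 or 2 or siControl+DFO replicate 2, Atg13 stood at an adjusted p of 0.0624 to 0.0908, and without siControl replicate 2, Rb1cc1 stood at 0.0526.

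The nucleation genes split. Atg14, the subunit that directs the PI3-kinase complex to autophagy, rose from 3.86, 3.15 and 3.29 FPKM in siControl to 7.74, 7.37 and 6.55 in siControl+DFO (log2 change 1.05 ± 0.20, adjusted p = 0.000812). It stood at 4.01, 2.98 and 4.13 in siNCOA4 and 6.05, 7.08 and 4.16 in siNCOA4+DFO, where replicate 3 lay only just above the highest siNCOA4 library. Becn1, the scaffold of the complex, rose by 0.33 ± 0.09 (adjusted p = 0.00802), and Pik3c3, its lipid kinase VPS34, fell by 0.41 ± 0.11 (adjusted p = 0.0077). Pik3r4, Uvrag and Ambra1 had log2 changes of -0.02, 0.01 and 0.13, none of which passed the test. Exons of Becn1 overlap those of Cntd1 on the opposite strand over 43.9% of their bases, and Cntd1 did not exceed 1.12 FPKM. The strand setting of the counting was not given in the sources used here.

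Membrane supply held the largest change of the machinery. Atg9b, a paralog of the membrane scramblase ATG9A, stood at 0.609, 0.901 and 0.817 FPKM in siControl, 3.93, 3.24 and 3.51 in siNCOA4, 35.5, 39.5 and 35.6 in siControl+DFO, and 46.2, 48.4 and 34.6 in siNCOA4+DFO. The siControl, siNCOA4 and DFO libraries occupied separate ranges, while siControl+DFO and siNCOA4+DFO overlapped. DFO raised Atg9b by 5.41 ± 0.16 on the log2 scale in siControl cells (95% interval 5.07 to 5.76, adjusted p = 4.18e-10), which took it from the lowest mean of the 39 to a level between Map1lc3b and Wipi2. Its widely expressed paralog Atg9a had means of 10.8 FPKM in siControl and 13.9 in siControl+DFO (log2 change 0.36 ± 0.17, adjusted p = 0.0972), a call made without siNCOA4 replicate 2 and when the compared groups were fitted alone. Exons of Atg9a overlap Gm29253 on the same strand and Ankzf1 on the opposite strand over 32.6% of their bases, so its level is uncertain. The gene Atg9b lies at chr5:24384181-24392143 on the minus strand (GRCm38, GENCODE), and 7.45% of its exonic bases overlap Nos3 on the opposite strand. Nos3 did not exceed 0.0885 FPKM in any library, and the neighbour Abcb8 lay between 4.67 and 7.71 FPKM.

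Other genes of this step moved less. Atg2b, one of the pair of lipid transfer proteins, went from 10.1, 8.89 and 9.21 FPKM in siControl to 17.6, 17.3 and 18.5 in siControl+DFO (log2 change 0.91 ± 0.10, adjusted p = 8.01e-06), and from 7.80, 7.37 and 8.05 in siNCOA4 to 16, 15.4 and 13.4 in siNCOA4+DFO. Its partner Atg2a had means of 8.18 and 6.25 FPKM in the siControl pair (-0.38 ± 0.15, adjusted p = 0.0462), a call lost in 9 of 12 fits that left out a library (adjusted p of 0.0527 to 0.148): without siControl replicate 1 or 2, any siNCOA4 replicate, any siControl+DFO replicate or siNCOA4+DFO replicate 1. The log2 ratio of Atg2a to Atg2b moved from a mean of -0.20 in siControl to -1.51 in siControl+DFO (exact permutation p = 0.1, adjusted p = 0.180). Wipi2, which reads PI3P and recruits the conjugation machinery, stood at 20.1, 19.6 and 17.6 FPKM in siControl, 19.6, 16.8 and 20.4 in siNCOA4, 32.3, 36.1 and 34.7 in siControl+DFO, and 26.2, 27.6 and 21.3 in siNCOA4+DFO. It rose with DFO in siControl cells by 0.85 ± 0.11 (adjusted p = 4.35e-05), and Wipi1, of the same family, had a log2 change of -0.10 that did not pass. Wdr45, another PI3P binder, stood at 5.16, 3.75 and 5.01 FPKM in siControl, 9.97, 7.61 and 6.59 in siControl+DFO, 5.68, 6.12 and 7.07 in siNCOA4, and 5.89, 8.08 and 9.48 in siNCOA4+DFO. Its rise of 0.78 ± 0.20 in siControl cells passed (adjusted p = 0.00691), with no overlap between those groups. Exons of Wdr45 overlap Gm45208 on the same strand over 24.7% of their bases, so its level is uncertain.

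**Figure D2:**
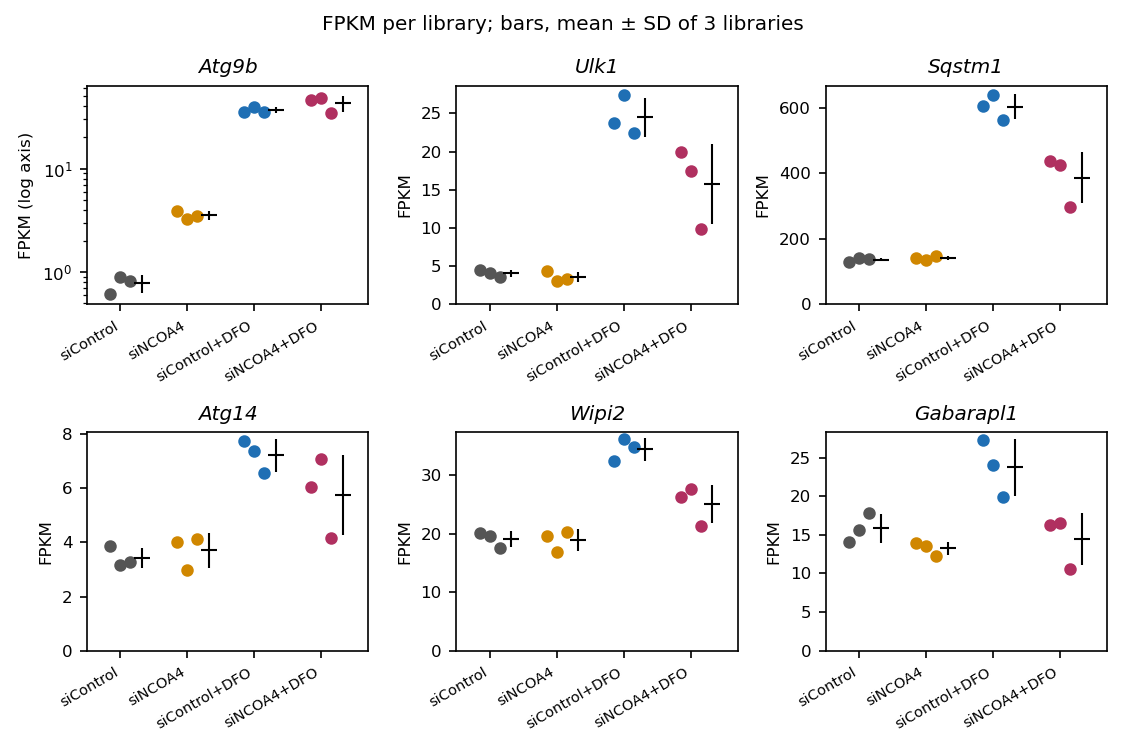
FPKM in each of the 12 libraries for 6 members, with the mean and SD of the 3 libraries of a group as cross and bar (the Atg9b axis is logarithmic, the others start at 0). Atg9b lies at 0.609 to 0.901 in siControl, 3.24 to 3.93 in siNCOA4 and 34.6 to 48.4 in the DFO libraries; in Ulk1, Sqstm1, Atg14, Wipi2 and Gabarapl1 the lowest siNCOA4+DFO point is replicate 3.

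Of the 11 conjugation genes, 3 rose with DFO in siControl cells, 1 fell and 7 did not pass. The rising share was close to the 27.7% of all genes, of which 25.7% fell, and the median log2 change was 0.13. Atg12, a ubiquitin-like modifier, went from 10.9, 8.43 and 10.0 FPKM in siControl to 19.4, 17.1 and 16 in siControl+DFO (log2 change 0.84 ± 0.15, adjusted p = 0.000529), and from 8.31, 12.3 and 9.48 in siNCOA4 to 15.9, 15.9 and 13.5 in siNCOA4+DFO. Atg16l1, which sets where ATG8 proteins are attached, went from 9.74, 8.80 and 9.66 FPKM to 15.7, 14.5 and 13.6 in the siControl pair (0.63 ± 0.10, adjusted p = 0.000147) and from 10.8, 9.98 and 11.2 to 13.8, 14.3 and 12.9 in the siNCOA4 pair. Its paralog Atg16l2 had a log2 change of 0.13 in siControl cells that did not pass. Atg3, the enzyme that transfers ATG8 proteins to lipid, stood at 24.7, 25.4 and 26.6 FPKM in siControl, 38.1, 30.7 and 33.6 in siControl+DFO, 28.6, 30.1 and 28.8 in siNCOA4, and 43.5, 40.7 and 35.7 in siNCOA4+DFO. DFO raised Atg3 by 0.41 ± 0.09 in siControl cells and by 0.45 ± 0.09 in siNCOA4 cells (adjusted p of 0.00269 and 0.0021). Atg7, the activating enzyme, fell by 0.47 ± 0.16 in siControl cells (adjusted p = 0.026), a call lost without siControl replicate 1 or 2 or siControl+DFO replicate 3 (adjusted p of 0.0588 to 0.113) and with the compared groups fitted alone (0.071). The 4 ATG4 proteases and Atg5, the partner of ATG12, had log2 changes of -0.17 to 0.40, none past the test. Atg10 was barely detected, at 0.447, 1.78 and 1.91 FPKM in siControl and 1.05, 0.179 and 0 in siControl+DFO, and its log2 change of -2.0 ± 0.83 had an adjusted p of 0.0592. That value fell below 0.05 without siControl replicate 1 or without siControl+DFO replicate 1. In Atg4a, 41.3% of 75-base windows also occur elsewhere in the annotated transcripts, so its level is uncertain.

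In the ATG8 family, 4 of 5 genes rose with DFO in siControl cells and 1 fell, beside 27.7% and 25.7% of all genes. The 5 genes together came to 176, 190 and 216 FPKM in siControl, 191, 196 and 209 in siNCOA4, 206, 181 and 188 in siControl+DFO, and 220, 221 and 202 in siNCOA4+DFO, so that the siControl and siControl+DFO ranges overlapped. Gabarap, the most abundant, stood at 103, 120 and 135 FPKM in siControl and 95.6, 84.0 and 89.7 in siControl+DFO, and it fell by 0.40 ± 0.10 (adjusted p = 0.00395). The 4 that rose were Gabarapl2, by 0.61 ± 0.17, Gabarapl1, by 0.58 ± 0.17, Map1lc3a, by 0.58 ± 0.22 and Map1lc3b, by 0.23 ± 0.08 (adjusted p of 0.00816, 0.0127, 0.0408 and 0.0316). Gabarapl2 went from 20.7, 18.3 and 24.8 FPKM to 35.2, 29.0 and 33.0, and Gabarapl1 from 14.1, 15.7 and 17.9 to 27.3, 24.0 and 19.97. Map1lc3b, which encodes the LC3B protein used as an autophagosome marker, went from 32.5, 30.9 and 33.7 to 39.8, 36.2 and 38.3, and Map1lc3a from 5.51, 5.52 and 4.67 to 8.25, 8.18 and 7.11. None of the 5 had overlapping siControl and siControl+DFO libraries. Of all genes, 31.1% lay apart upward and 29.6% downward. The calls on the LC3 genes were the least stable. Map1lc3a lost its call without any one siControl or siControl+DFO replicate or siNCOA4 replicate 2 (adjusted p of 0.0515 to 0.118), Map1lc3b without siControl replicate 1 or 2 or siControl+DFO replicate 1 or 3 (0.0552 to 0.105), and Gabarapl1 without siControl+DFO replicate 1 (0.0558).

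As a share of the family, which does not depend on how a library is scaled, Gabarap made up 58.5%, 63.0% and 62.5% in siControl and 46.4%, 46.3% and 47.7% in siControl+DFO. That is a difference of -14.5 percentage points. Gabarapl2 gained 5.89 points, Gabarapl1 4.20, Map1lc3b 3.08 and Map1lc3a 1.37. Each of these 5 differences had p = 0.1 in the exact permutation test, the smallest possible with 3 against 3 (adjusted p = 0.167 over 15 tests), so the shares separated completely but the design cannot reach 0.05. In siNCOA4+DFO the Gabarap share was 53.6%, 51.8% and 59.3% and the Gabarapl1 share 7.40%, 7.5% and 5.28%, against 8.01%, 8.24% and 8.25% in siControl and 13.2%, 13.2% and 10.6% in siControl+DFO. Gabarapl1 thus took a larger share in siControl+DFO than in any library of the other groups. Exons of Gabarapl1 overlap 1700101I11Rik on the opposite strand over 28.3% of their bases, and that gene did not exceed 0.447 FPKM.

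**Figure D3:**
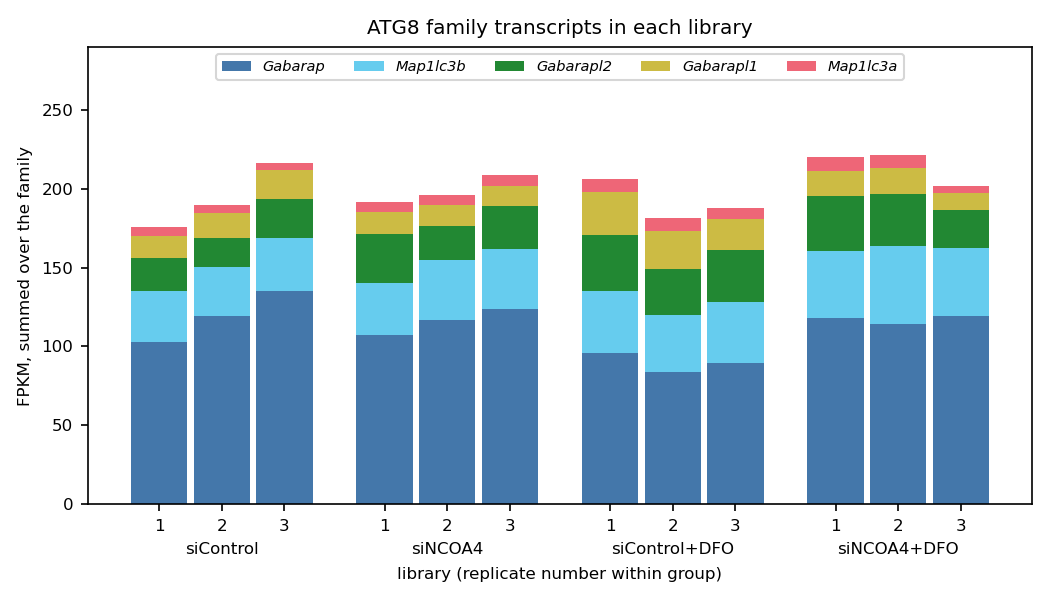
Summed FPKM of the 5 ATG8 family members in each library, stacked by gene, with libraries ordered by group and replicate number. The totals lie between 176 and 221, while the Gabarap block shrinks in the siControl+DFO libraries, where it makes up 46.3% to 47.7% of the total.

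Cargo receptors rose with DFO in siControl cells in 4 of 5 cases, beside 27.7% of all genes. Sqstm1, whose product p62 links ubiquitinated cargo to ATG8 proteins, stood at 130, 140 and 138 FPKM in siControl, 140, 136 and 147 in siNCOA4, 605, 641 and 565 in siControl+DFO, and 438, 426 and 299 in siNCOA4+DFO. It rose with DFO by 2.15 ± 0.12 in siControl cells (adjusted p = 5.1e-08) and by 1.44 ± 0.12 in siNCOA4 cells (adjusted p = 3.08e-06). The gene lies at chr11:50199366-50210827 on the minus strand, and 17.3% of its exonic bases overlap Mrnip, listed as 3010026O09Rik, which lay between 2.96 and 9.13 FPKM. Tax1bp1, another ubiquitin-binding receptor, stood at 73.8, 67.4 and 72.3 FPKM in siControl, 76.1, 78.1 and 82.3 in siNCOA4, 139, 122 and 116 in siControl+DFO, and 108, 106 and 104 in siNCOA4+DFO. Optn, the receptor optineurin, stood at 5.48, 5.17 and 5.05 in siControl, 4.63, 4.56 and 4.91 in siNCOA4, 9.11, 9.13 and 10.5 in siControl+DFO, and 8.83, 8.52 and 7.15 in siNCOA4+DFO. These 3 receptors and Nbr1 had every siControl+DFO library above every siControl library, as did 31.1% of all genes. They also had every siNCOA4+DFO library above every siNCOA4 library, as did 27.6% of all genes. The rises in siControl cells were 0.82 ± 0.07 for Tax1bp1, 0.86 ± 0.12 for Optn and 0.49 ± 0.08 for Nbr1, a receptor related to p62 (adjusted p of 2.31e-06, 7.4e-05 and 0.000258). Calcoco1, linked to turnover of the endoplasmic reticulum, had a log2 change of 0.03 that did not pass, and the tethering factor gene Tecpr1 had 0.30 (adjusted p = 0.216).

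The start regions of the 4 members that rose more than 2-fold are shown to let the promoter of each be read beside its values. Each sequence runs 5′ to 3′ from 250 bases before to 50 bases after the annotated gene start, as RefSeq gives it on GRCm38.p6, on the minus strand in all 4 cases: chr5:24392094-24392393 for Atg9b, chr5:110810032-110810331 for Ulk1, chr11:50210771-50211070 for Sqstm1 and chr14:47568385-47568684 for Atg14. Capitals mark a match to the E-box CACGTG.
Atg9b: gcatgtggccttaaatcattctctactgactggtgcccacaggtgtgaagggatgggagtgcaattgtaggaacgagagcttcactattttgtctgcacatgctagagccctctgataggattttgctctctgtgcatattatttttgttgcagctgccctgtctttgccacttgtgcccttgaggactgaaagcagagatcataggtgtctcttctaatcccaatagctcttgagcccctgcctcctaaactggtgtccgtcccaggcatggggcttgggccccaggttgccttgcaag
Ulk1: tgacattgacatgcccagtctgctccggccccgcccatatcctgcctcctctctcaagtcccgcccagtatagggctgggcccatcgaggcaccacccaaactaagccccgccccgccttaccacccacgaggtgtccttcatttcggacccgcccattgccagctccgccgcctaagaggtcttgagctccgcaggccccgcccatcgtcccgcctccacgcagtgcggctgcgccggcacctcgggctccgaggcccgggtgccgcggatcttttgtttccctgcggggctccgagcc
Sqstm1: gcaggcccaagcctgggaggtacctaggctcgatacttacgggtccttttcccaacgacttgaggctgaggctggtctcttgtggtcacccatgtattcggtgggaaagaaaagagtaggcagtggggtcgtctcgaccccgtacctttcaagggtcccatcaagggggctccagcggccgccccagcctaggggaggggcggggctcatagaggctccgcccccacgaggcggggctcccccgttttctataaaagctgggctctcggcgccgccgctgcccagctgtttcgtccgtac
Atg14: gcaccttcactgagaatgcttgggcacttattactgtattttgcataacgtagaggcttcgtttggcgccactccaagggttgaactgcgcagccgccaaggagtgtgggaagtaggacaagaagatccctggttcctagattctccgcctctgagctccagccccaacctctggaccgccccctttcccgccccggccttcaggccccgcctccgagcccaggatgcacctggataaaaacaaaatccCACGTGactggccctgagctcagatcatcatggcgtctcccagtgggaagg

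Motifs were searched on both strands of all such windows, of which 33 of 39 members had at least one. The core of the hypoxia response element, ACGTG, was in 14 of 33 members (42.4%) and in 30% of the 8996 tested genes with a window. Among members it was in 6 of the 15 that rose with DFO and 8 of the 18 others. The E-box CACGTG, which contains ACGTG, was in 4 of 33 (12.1%) against 12% of tested genes. It was in 2 of the 15 rising members and 2 of the 18 others. TGACNNNGC, the core of the antioxidant response element, was in 4 of 33 (12.1%) against 17.0%. Among the sequences printed, the Atg14 window alone held a match, to CACGTG and therefore to ACGTG, and these letters were absent from the windows of Atg9b, Ulk1 and Sqstm1.

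Silencing of Ncoa4 without DFO moved few members. In siNCOA4 against siControl, 2 of 39 rose and 0 fell, 5.13% and 0% against 4.52% and 7.21% of all genes tested, and the median log2 change was 0.03 against 0.01 over all genes. At an unadjusted p below 0.05 there were 7 members, 17.9% against 26.2% of all genes. Atg9b was the larger change at 2.07 ± 0.16 (adjusted p = 1.25e-05), with siNCOA4 libraries at 3.24 to 3.93 FPKM and siControl libraries at 0.609 to 0.901, and it kept its call in every alternative. Atg4c, one of the ATG4 proteases, stood at 7.65, 6.38 and 5.76 FPKM in siControl, 8.76, 10.9 and 8.57 in siNCOA4, 7.37, 8.01 and 7.45 in siControl+DFO, and 8.11, 10.9 and 10.4 in siNCOA4+DFO. Its change of 0.51 ± 0.15 only just passed (adjusted p = 0.0479) and was lost in 9 of 12 fits that left out a library (adjusted p of 0.0522 to 0.179): without siControl replicate 2 or 3, any siNCOA4 replicate, any siControl+DFO replicate or siNCOA4+DFO replicate 2. The cargo receptors had log2 changes of -0.15 to 0.15 in this comparison, none past the test.

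DFO in siNCOA4 cells raised 16 of 39 members and lowered 1, 41.0% and 2.56% against 23.1% and 19.6% of all genes, with a median log2 change of 0.21 against -0.003 over all genes. No library is common to this comparison and to DFO in siControl cells. Of the 20 members that rose with DFO in siControl cells, 16 rose here (80%), and these were all of the 16 that rose here (100%). Over all genes tested the same shares were 70.8% and 84.8%. The members above 2-fold were Atg9b, Ulk1 and Sqstm1, 7.69% against 7.59% of all genes. The 4 that rose in siControl cells alone by this count were Wdr45, Map1lc3a, Gabarapl1 and Gabarapl2, with log2 changes in siNCOA4 cells of 0.29, 0.03, 0.10 and 0.20. A difference between the effects was not shown for any of them, since no interaction passed. Atg13 rose from 3.87, 3.78 and 2.97 FPKM in siNCOA4 to 6.44, 5.39 and 6.06 in siNCOA4+DFO (0.74 ± 0.16, adjusted p = 0.00272), and Ulk2 fell by 0.44 ± 0.12 (adjusted p = 0.00982). Nbr1 at 0.21 ± 0.08 passed narrowly (adjusted p = 0.049) and was lost in 9 of 12 fits without a library (adjusted p of 0.0528 to 0.163), the exceptions being siControl replicates 1 and 2 and siNCOA4+DFO replicate 3. Losses with a library left out were also seen for Atg14 (siNCOA4 replicate 2, siNCOA4+DFO replicate 1 or 2, 0.0845 to 0.122), Wipi2 (siNCOA4 replicate 2 or siNCOA4+DFO replicate 2, 0.0536 and 0.0543) and Map1lc3b (siNCOA4 replicate 1 or siNCOA4+DFO replicate 2, 0.053 and 0.0529).

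The interaction term, which asks whether the DFO effect differed between siNCOA4 and siControl cells, passed for 1 member, 2.56% against 2.1% of all genes. For Atg9b it was -1.86 ± 0.23 (95% interval -2.36 to -1.37, adjusted p = 0.00351): DFO raised it by 5.41 from the low siControl level and by 3.55 from the higher siNCOA4 level, and the DFO groups differed by 0.21 ± 0.16 (adjusted p = 0.397). For Sqstm1 the interaction was -0.71 ± 0.18 (95% interval -1.09 to -0.33, adjusted p = 0.0596). It passed without siNCOA4+DFO replicate 1 or without replicate 3 of that group. At an unadjusted p below 0.05 there were 6 members, Atg9b, Sqstm1, Tax1bp1, Gabarap, Wipi2 and Nbr1, which is 15.4% against 18.2% of all genes.

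Under iron restriction, silencing of Ncoa4 left 4 members lower and 1 higher with the libraries scaled as deposited. In siNCOA4+DFO against siControl+DFO, 10.3% of members fell against 10.2% of all genes, and 2.56% rose against 6.22%, with a median log2 change of -0.08 against -0.01. Sqstm1 was lower in each of the 3 siNCOA4+DFO libraries than in any siControl+DFO library, by -0.66 ± 0.12 (adjusted p = 0.00441), and this call was kept in every alternative fit, though the change is under 2-fold. Wipi2 fell by 0.46 ± 0.11 (adjusted p = 0.0145) and Tax1bp1 by 0.24 ± 0.07 (adjusted p = 0.0449). Gabarapl1 stood at 27.3, 24.0 and 19.97 FPKM in siControl+DFO and 16.3, 16.6 and 10.6 in siNCOA4+DFO, a change of -0.73 ± 0.17 (adjusted p = 0.0134), with 14.0, 13.5 and 12.3 in siNCOA4. Gabarap was the one gene higher, at 118, 114 and 120 FPKM in siNCOA4+DFO against 95.6, 84.0 and 89.7 in siControl+DFO (0.39 ± 0.10, adjusted p = 0.0181), with 107, 117 and 124 in siNCOA4. The groups did not overlap for these 5 genes. Over the whole list, groups lay apart upward for 3 members, 7.69% against 14.7% of all genes, and downward for 9, 23.1% against 20.1%. The authors reported altered morphology and lower viability for the combined treatment, whereas viability did not change with either treatment alone. In these libraries, that condition of the cells cannot be told apart from the silencing under DFO.

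Of these 5 calls, 4 depended on single libraries. Gabarap lost its call without siControl+DFO replicate 2 or siNCOA4+DFO replicate 3 (adjusted p of 0.073 and 0.0528), Wipi2 without siControl+DFO replicate 2 (0.0569) and Gabarapl1 without siControl+DFO replicate 1 (0.0544) or with the compared groups fitted alone (0.0598). Tax1bp1 lost it in 10 of 12 fits without a library (0.0536 to 0.155), the exceptions being siControl replicate 1 and siControl+DFO replicate 3. Without siControl+DFO replicate 2, 2 members were called in place of 5, and without siNCOA4+DFO replicate 3 there were 3. A rescaling that set the libraries to equal sums without small RNA genes moved the median of all genes by 0.13 in this comparison. The upward share of its calls went from 37.8% to 67.7%, and Wipi2 and Tax1bp1 lost their calls (limma adjusted p of 0.0517 and 0.307). Tax1bp1 also lost its call under quantile normalization (0.58). Under both scalings, Atg3 and Map1lc3b gained calls as higher in siNCOA4+DFO (lowest adjusted p of 0.0181 and 0.0113). The balance of members lower and higher thus depended on scaling. Ulk1, at -0.69 ± 0.23, stood just outside (adjusted p = 0.0568), with all 3 siNCOA4+DFO libraries below the siControl+DFO libraries, and was called without siNCOA4+DFO replicate 1.

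**Figure D4:**
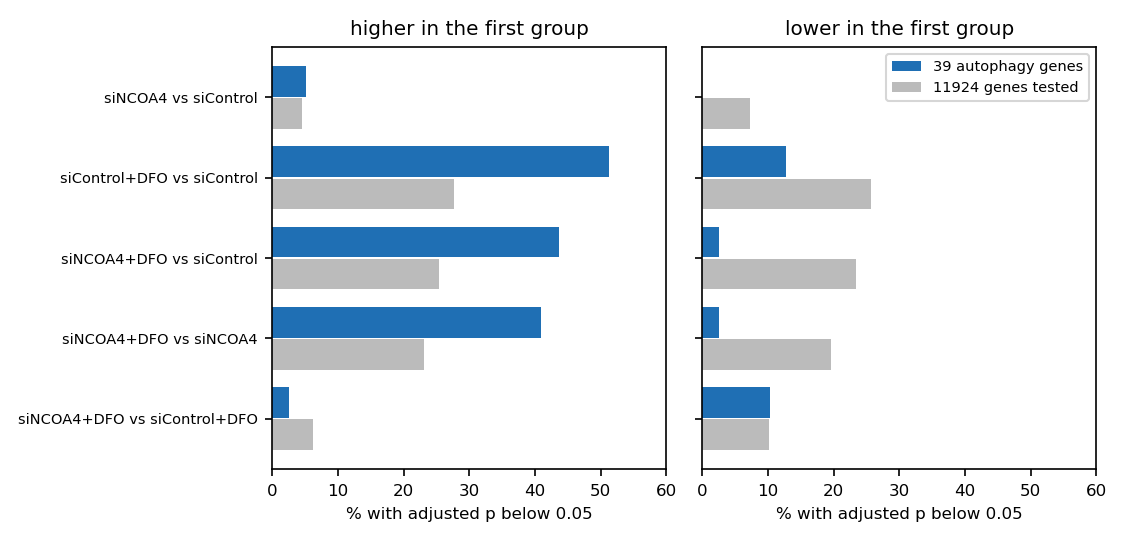
Percent of the 39 autophagy genes (blue) and of the 11924 genes tested (grey) with an adjusted p below 0.05 in limma, higher (left) or lower (right) in the first-named group of each comparison. With DFO in siControl cells 51.3% of the members rose against 27.7% of all genes, whereas in siNCOA4+DFO against siControl+DFO the falling shares were 10.3% and 10.2%.

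Set against siControl cells without DFO, the combined treatment raised 17 members and lowered 1. That was 43.6% and 2.56% against 25.4% and 23.4% of all genes, with a median log2 change of 0.31 against 0.01. This comparison shares its controls with those of siNCOA4 and siControl+DFO. Atg9b changed by 5.62 ± 0.16, Ulk1 by 1.88 ± 0.23 and Sqstm1 by 1.49 ± 0.12, the 3 members above 2-fold (7.69% against 9.24% of all genes). Atg2a fell by 0.52 ± 0.15 (adjusted p = 0.0111), and Atg4c rose by 0.56 ± 0.15 (adjusted p = 0.00798). Gabarapl2, at 34.6, 33.1 and 24.3 FPKM, rose by 0.52 ± 0.17 (adjusted p = 0.021) although its siNCOA4+DFO replicate 3 lay below the highest siControl library. Without siNCOA4+DFO replicate 2, 13 members were called in place of 18, with Rb1cc1, Atg14, Atg2a, Wipi2 and Gabarapl2 lost (adjusted p of 0.0508 to 0.0728). Rb1cc1 was also lost without siControl replicate 2 or 3 or siNCOA4+DFO replicate 1 or 3 (0.0581 to 0.133), Wipi2 without siControl replicate 3 (0.0522), and Gabarapl2 without siControl replicate 1 or 2 or siNCOA4+DFO replicate 1 (0.0505 to 0.0862).

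Over the 5 pairwise comparisons, 13 of the 39 members (33.3%) were called in none, against 31.4% of all genes tested. They were Pik3r4, Uvrag, Ambra1, Wipi1, Atg9a, Atg4a, Atg4b, Atg4d, Atg5, Atg10, Atg16l2, Calcoco1 and Tecpr1.

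Beyond the core list, 22 genes of late steps and accessory factors and 15 upstream regulators were read as fixed lists. With DFO in siControl cells, 10 of the 22 late genes rose and 2 fell, 45.5% and 9.09% against 27.7% and 25.7% of all genes, with a median log2 change of 0.17. Vmp1, needed for autophagosome formation at the endoplasmic reticulum, went from 19.6, 20.1 and 23.1 FPKM to 43.3, 47.0 and 44.2 (1.10 ± 0.10), and Zfyve1, which encodes the PI3P-binding protein DFCP1, from 8.69, 7.21 and 6.45 to 17.0, 17.2 and 15.7 (1.16 ± 0.14), and these were the 2 above 2-fold. Of the 14 upstream regulators tested, 5 rose and 1 fell, 35.7% and 7.14%, with a median of 0.18. Foxo3, a transcription factor with autophagy genes among its targets, stood at 11.1, 8.35 and 8.45 FPKM in siControl, 6.74, 5.09 and 6.33 in siNCOA4, 47.1, 53.4 and 48.1 in siControl+DFO, and 35.5, 29.4 and 25.8 in siNCOA4+DFO. It rose with DFO by 2.41 ± 0.15 in siControl cells and by 2.30 ± 0.15 in siNCOA4 cells, and in siNCOA4+DFO it was 0.72 ± 0.15 below siControl+DFO (adjusted p = 0.00702). Without DFO, Foxo3 was also lower in siNCOA4 than in siControl (log2 change -0.61, limma adjusted p = 0.0211), a call lost in 3 of 23 alternatives. Its interaction term did not pass. Tfeb, a master regulator of lysosomal genes, moved down from 4.78, 4.53 and 5.24 FPKM to 0.987, 1.56 and 1.91 with DFO in siControl cells (-1.69 ± 0.31, adjusted p = 0.000597). In siNCOA4 cells Tfeb stood at 4.84, 3.7 and 3.5 without and 2.63, 1.62 and 4.06 with DFO, overlapping ranges, and neither that change nor the interaction passed. Prkaa2 was too low to test. The DFO calls on Vmp1, Zfyve1, Foxo3 and Tfeb in siControl cells were kept in all 23 alternatives.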

How the data were processed

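The authors prepared stranded total RNA libraries and deposited 1 table of FPKM per library. The submitters' processing notes name Trimmomatic 0.33, FastQC, HISAT2 2.1.0, featureCounts, edgeR and build mm10, without roles; the FPKM tool, the annotation and the strand setting are not given in the sources used here. FPKM are not counts, so limma 3.58.1 (R 4.3.3) was used on log2(FPKM + 0.1) for genes with at least 0.5 FPKM in at least 3 libraries. A means model over all 12 libraries, 8 residual degrees of freedom, used moderation with a mean-variance trend and two-sided Benjamini-Hochberg adjustment over all 11924 genes; a call is an adjusted p below 0.05, and fold changes on this scale understate those of low genes. ATG8 shares and paralog ratios were compared by exact permutation over libraries. The authors give a minimum number of reads aimed at per sample. The depth of each library in reads is unknown, because the FPKM values did not resolve into whole reads. The number of libraries limits the precision.

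Members and lists were chosen with earlier results of these data known. Values per library are given for members with a call above 1.5-fold in any pairwise comparison, a call in siNCOA4 against siControl, in siNCOA4+DFO against siControl+DFO or in the interaction, and for the ATG8 family. Groups and biological replicates are those of the labels; p-values measure the spread between these libraries. Overlaps were computed on GENCODE genes of GRCm38. Alternatives were pseudocounts, filters, scalings, a replicate block, moderation, compared groups alone, and leaving out each library; leave-one-out of the paralog ratios was added after seeing the data. The procedure was tested on simulated data with few genes changed and independent noise, unlike the many genes called with DFO here.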

Additional observations from a re-analysis of the deposited data

Results flagged for a closer look

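Atg9b stood out because the interaction term passed: its log2 change with DFO was 5.41 in siControl cells and 3.55 in siNCOA4 cells, a difference of -1.86 (adjusted p = 0.00351, limma over all genes). The siNCOA4 libraries started higher, at 3.24 to 3.93 FPKM against 0.609 to 0.901, and the DFO groups overlapped, at 35.5 to 39.5 and 34.6 to 48.4 FPKM. No single library decided this result, which was kept with each of the 12 left out in turn. Under settings that kept all libraries, among them other pseudocounts, the difference lay between -1.987 and -1.155. Why the starting levels differed was not tested.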

How the results depend on the processing

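None of the 68 member calls reversed: of 747 values under alternative settings 713 kept the call and 34 lost it, and of 816 values with 1 library left out 732 kept it and 84 lost it. The counts moved as follows; where no value here shows it, the cause was not tested. In siNCOA4 against siControl, 2 members became 1 without the filter on low values, with the replicate block, without the moderation trend, with the compared groups alone and with a fold above 2, and 1 to 2 with a library left out. Requiring a fold above 2 took DFO in siControl cells from 25 to 4, the combined treatment against siControl from 18 to 3, DFO in siNCOA4 cells from 17 to 3, and siNCOA4+DFO against siControl+DFO from 5 to 0, as its construction implies. The last comparison gave 3 with the compared groups alone. With a library left out, these 4 counts ran from 18 to 25, 13 to 19, 13 to 17 and 2 to 5. The interaction went from 1 to 2 members, adding Sqstm1, under quantile normalization and robust moderation, and 1 to 2 with a library left out.

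The rescaling to equal sums moved the upward share of all calls from 38.5% to 58.2% in siNCOA4 against siControl and from 52.1% to 61.6% in the combined treatment, and quantile normalization moved that of siNCOA4+DFO against siControl+DFO from 37.8% to 50.6%. Quantile normalization also ended the DFO calls on Rb1cc1, Becn1, Atg2a, Atg7 and Map1lc3b in siControl cells. Among the DFO calls in siControl cells, Map1lc3b was also lost under the equal sums (adjusted p = 0.0541) and without the moderation trend (0.0502), Map1lc3a without that trend (0.0524) and without the filter (0.0647), and Atg2a without the filter (0.0622).

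Pairing by replicate number was not shown: over 18 pairs with the same number, deviations from the group means correlated between -0.127 and 0.116, with 2 above 0.1. With 3 libraries a group, such a check cannot exclude a shared batch. The replicate block gave 25 members called with DFO in siControl cells, as without it, 1 for siNCOA4 against siControl, and added Ulk1 in siNCOA4+DFO against siControl+DFO while dropping Tax1bp1 there and Nbr1 with DFO in siNCOA4 cells.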
